A study of Mus musculus with 12 samples.

Results

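The BCL2 family decides whether a cell keeps its mitochondria intact or enters apoptosis. Anti-apoptotic members bind and restrain the effectors Bax and Bak1, which otherwise open pores in the outer mitochondrial membrane and release cytochrome c, and BH3-only members either neutralise the anti-apoptotic proteins or activate the effectors directly. In fibroblasts, growth factor signalling keeps BH3-only genes low and Mcl1 high, and much of the control acts on protein stability and phosphorylation, which RNA counts do not show. The transcripts of 10 family members, chosen by name, were followed in 12 RNA sequencing libraries: the 3 anti-apoptotic genes Bcl2, Bcl2l1 and Mcl1, the 2 effectors Bax and Bak1, and the 5 BH3-only genes Bid, Bad, Bcl2l11, Bbc3 and Pmaip1. They are 10 of the 54447 rows of the count table.

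The cells were mouse embryonic fibroblasts by their labels, and NIH3T3 cells, an established mouse fibroblast line, by the methods of the study. Both populations carried a lentiviral construct with a Tet-on promoter, switched on by doxycycline (dox), and were selected with puromycin; one encoded N-VEGF, the amino-terminal extension of a long VEGF-A form, and the other NLS-N-VEGF, the same protein with a nuclear localization sequence. The 4 groups of 3 libraries were NLS-N-VEGF no dox, NLS-N-VEGF dox, N-VEGF no dox and N-VEGF dox, and no population without a construct was among them. Each group held libraries 1 and 2 that shared a label suffix, called suffix a here, and a library 2 with another, suffix b, and they are named 1a, 2a and 2b below. What the suffix stands for is not stated, and nothing in the labels says that the libraries came from separate cultures, so p-values measure only the spread between these libraries.

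The study linked N-VEGF to cell survival by apoptosis assays of stressed cells that lacked it, and by anti-apoptotic genes outside this family such as Src. By its account, the cells of the present libraries were induced under normoxia, so their counts do not test survival under stress. The question asked here of the counts was whether the balance of anti- and pro-apoptotic transcripts moved with dox, with the localization sequence or with the suffix. Libraries held 13549331 to 18982127 counts, and 3 counts, the smallest level taken as measurable, corresponded to 0.158 to 0.221 counts per 1000000 counts (CPM). The construct row held 5 to 12 counts in the 6 libraries without dox and 35 to 268 in the 6 with dox, so every dox library was above every library without dox. Induced libraries 1a, 2a and 2b held 48, 35 and 173 counts in NLS-N-VEGF cells and 121, 149 and 268 in N-VEGF cells. Construct counts were thus unequal between the populations and highest in 2b of each. Their part in comparisons of the populations or suffixes was not tested. Library 1a of N-VEGF no dox stood apart, with the fewest genes detected (19976, against 20947 to 22889 in the others), and the 4 libraries of suffix b stood apart from the other 8. All 10 fibroblast markers passed the filter on low counts, with a summed level of 11270 to 14250 CPM in suffix a and 11600 to 13200 CPM in suffix b. Epithelial markers summed to 0.880 to 1.88 CPM and endothelial markers to 2.39 to 4.49 CPM over all libraries. Of 4 epithelial markers only Cdh1 (0.493 to 1.71 CPM) passed the filter, while Epcam reached at most 0.0628 CPM. Of 4 endothelial markers, Cdh5 (1.84 to 3.46 CPM) and Pecam1 (0.214 to 1.01 CPM) passed it, while Kdr reached at most 0.0714 CPM.

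Levels are compared between genes only as normalised CPM per kb of exon, which divides by length. Mcl1, the short-lived anti-apoptotic protein on which many cells depend, and Bax, the cytosolic effector, were the most abundant, at 52.8 ± 2.92 and 48.9 ± 7.12 CPM per kb (SD, n = 12). Bak1, the effector resident on mitochondria, followed at 20.5 ± 1.95 CPM per kb (SD, n = 12). Bad, which survival kinases inactivate by phosphorylation, stood at 11.6 ± 1.07 and Bcl2l1, which encodes BCL-XL, at 10.7 ± 1.41 CPM per kb (SD, n = 12). The low members were Bbc3 (PUMA, 3.57 ± 0.363), Bcl2l11 (BIM, 2.27 ± 0.565), Bid (2.02 ± 0.458) and Bcl2 (1.34 ± 0.168 CPM per kb, SD, n = 12). Neighbours whose ranges overlapped were Mcl1 and Bax, Bad and Bcl2l1, Bcl2l11 and Bid, and Bid and Bcl2, with Bbc3 also overlapping Bcl2l11 at its lowest value (2.94, against a highest Bcl2l11 of 2.98). Within the anti-apoptotic class, Mcl1 made up 78.4% to 84.7% of the summed CPM per kb in each library, Bcl2l1 13.4% to 19.9% and Bcl2 only 1.67% to 2.63%. Within the pro-apoptotic class, Bax made up 49.4% to 61.9% and Bak1 19.9% to 26.9%.

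The order within 3 of these pairs followed the suffix. Bcl2l11 lay above Bid per kb in 8 of 8 libraries of suffix a and in 0 of 4 of suffix b. Mcl1 lay above Bax in 8 of 8 and in 1 of 4, and Bad above Bcl2l1 in 8 of 8 and in 1 of 4. Pmaip1, which encodes NOXA and is a target of p53, was all but absent: 1 count in all 12 libraries, in NLS-N-VEGF dox 2b, and 0 counts in the other 11, which allows up to 0.158 to 0.221 CPM per library. It did not pass the filter on low counts, so tests cover 9 of the 10 members, all of which had counts in every library. In a bulk sample, fewer expressing cells and less RNA per cell cannot be told apart.

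**Figure D1:**
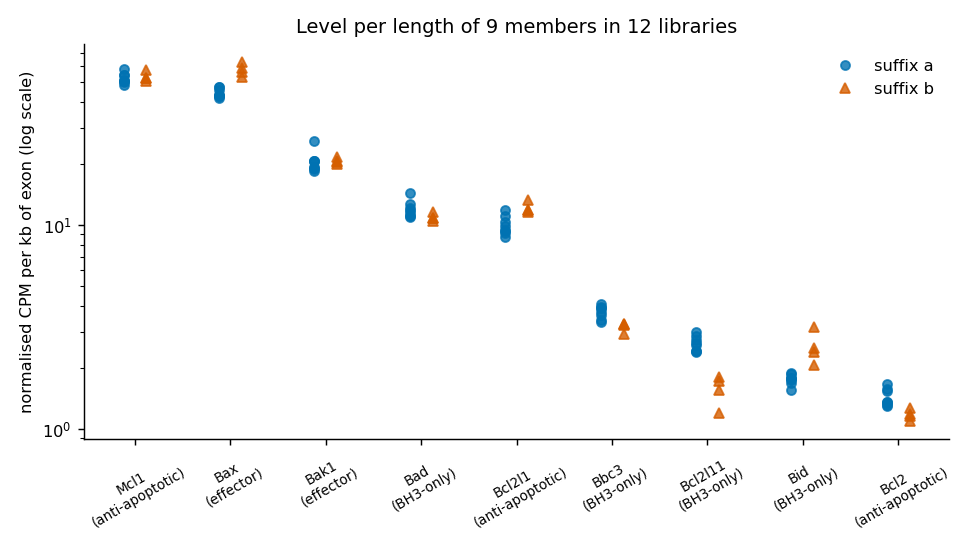
Normalised CPM per kb of exon on a log axis for the 9 members with counts in every library, each point 1 library, circles for suffix a and triangles for suffix b. Mcl1 and Bax lie near 50 CPM per kb, and Bcl2l11 and Bid change places between the suffixes.

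Part of the exon sequence of some members is shared with another gene, and the library kit does not mark strand. In the annotation of build GRCm38, the exons of Bak1 (chromosome 17, 27019810 to 27029009, minus strand) were covered to 25.5% by the antisense gene Ggnbp1, those of Bad (chromosome 19, 6941861 to 6951899, plus strand) to 20.5% by Gpr137 and those of Bid (chromosome 6, 120891930 to 120916853, minus strand) to 17.7% by Bcl2l13. For Bcl2 (chromosome 1, 106538178 to 106714274, minus strand) the share was 6.09%, and 12.2% of the exon bases of Bax (chromosome 7, 45461697 to 45466898, minus strand) lay in the same-strand gene Gm45808. The counts of these 5 genes are therefore less certain. No exon overlap was found for Bcl2l1 (chromosome 2, 152780668 to 152831728, minus strand), Mcl1 (chromosome 3, 95658788 to 95663176, plus strand), Bcl2l11 (chromosome 2, 128126038 to 128162547, plus strand) or Bbc3 (chromosome 7, 16308393 to 16318205, plus strand).

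No member passed the test for an effect of dox, in NLS-N-VEGF or in N-VEGF cells. In edgeR's quasi-likelihood test, 0 of 9 members had an adjusted p under 0.05 in either population, where 0.0220% of all 13608 genes tested did in NLS-N-VEGF cells and 0.0367% in N-VEGF cells. At an unadjusted p under 0.05 the count was also 0 of 9 in each, beside 2.34% of all genes in NLS-N-VEGF cells and 1.48% in N-VEGF cells. DESeq2 called 0 of 9 as well, beside 12 and 8 of the 13608 genes. The median log2 fold change of the 9 members was 0.08 in NLS-N-VEGF cells and -0.07 in N-VEGF cells, beside 0.00 for all genes in both. The 95% intervals of this fit, which has no term for the suffix, differed in width. For Mcl1 they ran from -0.29 to 0.06 in NLS-N-VEGF cells and from -0.17 to 0.19 in N-VEGF cells. For Bcl2l11 they ran from -0.78 to 0.49 and from -0.79 to 0.49. With the replicate block, which compares libraries of the same label, 0 of 9 members were called in each population, where 0.125% and 0.110% of all genes were. The Bcl2l11 intervals were narrower with this block, at -0.34 to 0.07 in NLS-N-VEGF cells and -0.38 to 0.04 in N-VEGF cells. Those of Mcl1 changed little, to -0.27 to 0.05 and -0.15 to 0.17.

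Among the anti-apoptotic genes, Bcl2, the founding member of the family, was the one whose effects differed most between the populations. Without dox, libraries 1a, 2a and 2b of the NLS-N-VEGF population held 12.4, 11.8 and 10.1 CPM of it, and the induced ones 14.0, 15.2 and 10.8 CPM. The uninduced N-VEGF libraries held 12.3, 14.4 and 11.7 CPM, and the induced ones 12, 12.5 and 10.7 CPM. All 3 same-label pairs were thus higher when induced in the first population and lower in the second, although induced and uninduced values overlapped in both. The fitted effect was 0.22 (log2, SE 0.15, adjusted p = 1 in edgeR) with the localization sequence and -0.12 (log2, SE 0.15, adjusted p = 1 in edgeR) without it. These effects differed by 0.34 (SE 0.21, unadjusted p = 0.129, adjusted p = 1 in edgeR), and by 0.34 (SE 0.15, unadjusted p = 0.0378, adjusted p = 1) with the replicate block.

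Mcl1 varied least for its level, with an SD of 9.97 around a mean of 180.3 CPM over the 12 libraries. In the NLS-N-VEGF population it stood at 198.7, 186.8 and 180.5 CPM before induction and at 173.8, 175.6 and 174.2 CPM after it, so the values did not overlap. This was so for 1 of 9 members in this population, beside 9.25% of all genes, and for 0 of 9 in N-VEGF cells, beside 3.92%. N-VEGF libraries had 166.8, 171.1 and 197.1 CPM uninduced and 174.3, 185.2 and 179.3 CPM induced, which did overlap. The log2 effect of dox was -0.11 (SE 0.08) in the first and 0.01 (SE 0.08) in the second, each with an adjusted p of 1 in edgeR. Bcl2l1 ranged from 42.0 to 54.1 CPM uninduced and from 45.3 to 52.9 CPM induced in the first population, and from 47.6 to 54.5 CPM and from 39.9 to 60.9 CPM in the second.

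The effectors and BH3-only genes overlapped between dox and no dox in both populations. Bax stood at 68.1, 68.6 and 92.3 CPM in NLS-N-VEGF no dox and at 74.4, 67.9 and 83.9 CPM in NLS-N-VEGF dox. It stood at 75.0, 72.02 and 88.8 CPM in N-VEGF no dox and at 67.9, 66.2 and 99.2 CPM in N-VEGF dox. In each group the third value, that of library 2b, was the highest. Bak1 lay between 44.4 and 51.7 CPM except for 62.4 CPM in N-VEGF no dox 1a, the library that stood apart, which also had the highest Bad level (36.6 CPM, against 26.7 to 32.6 CPM elsewhere). Without that library the log2 effect of dox in the N-VEGF population moved from -0.06 to 0.10 for Bak1 and from -0.07 to 0.05 for Bad. The other BH3-only genes had group means of 6.66 to 7.81 CPM for Bid, which death receptor signalling cleaves into its active form, 16.0 to 20.5 CPM for Bcl2l11 and 7.13 to 7.99 CPM for Bbc3.

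**Figure D2:**
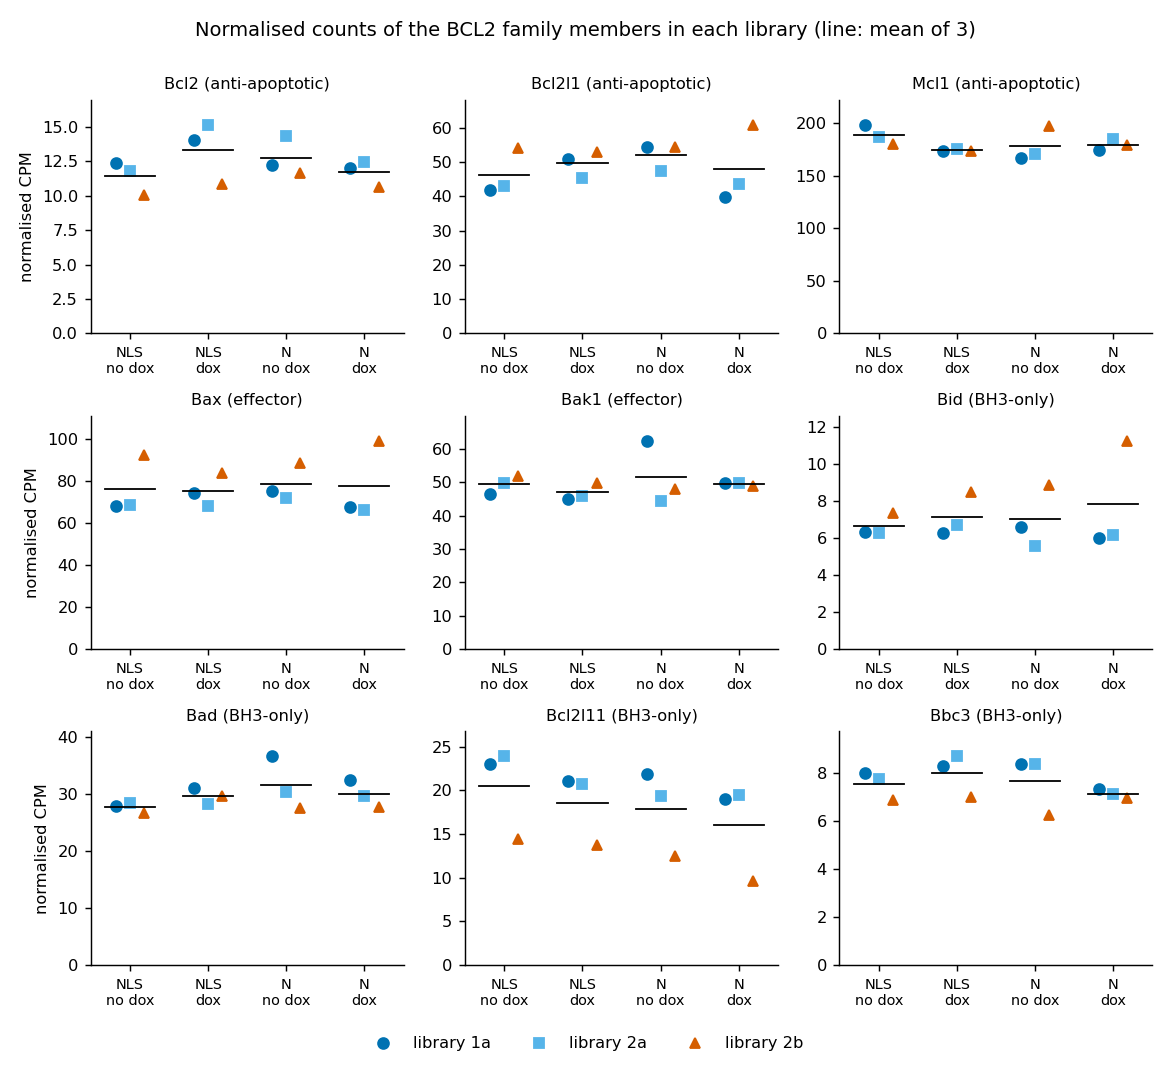
Normalised CPM of 9 members in each library, by group, with circles, squares and triangles for libraries 1a, 2a and 2b and a line at the mean of 3. The group means lie close together, while library 2b is the lowest of its group for Bcl2, Bcl2l11 and Bbc3 and the highest for Bax and Bid.

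**Figure D3:**
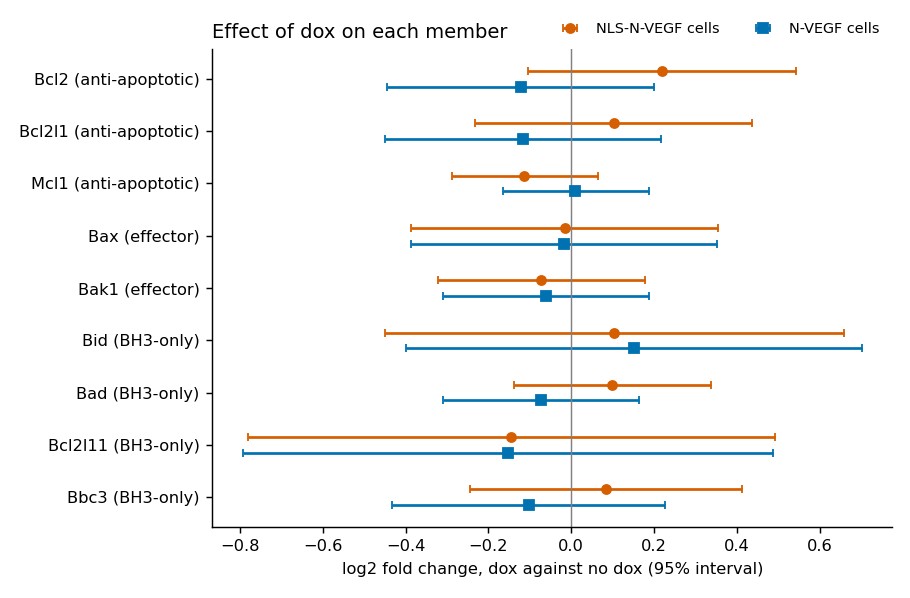
Log2 fold change with dox for each of the 9 members, with 95% intervals from edgeR, circles for NLS-N-VEGF cells and squares for N-VEGF cells. All 18 intervals span 0.

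The populations were also compared with each other. The difference of the dox effects was called for 0 of 9 members and 0% of all genes, as was NLS-N-VEGF against N-VEGF with dox (0 of 9 and 0%) and without dox (0 of 9 and 0%). At an unadjusted p under 0.05, 0 of 9 members passed in edgeR in each of these comparisons, and DESeq2 called 0 of 9. Of all genes, 0.852% passed that unadjusted threshold for the difference of the effects, 1.18% with dox and 0.603% without dox. With dox, the fitted log2 differences between populations lay between -0.12 for Bid and 0.20 for Bcl2l11; without dox they lay between -0.19 for Bad and 0.20 for Bcl2l11. With the replicate block, 0 of 9 members were called in each, where 0%, 0.0147% and 0% of all genes were. Bcl2l11 was 0.23 higher (log2, SE 0.10, unadjusted p = 0.0349, adjusted p = 0.992 in edgeR with that block) in NLS-N-VEGF cells with dox, and 0.20 higher without dox. These comparisons share groups and are not independent.

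The suffix separated 6 of the 9 members. In edgeR's test with group in the model, Bid, Bax and Bcl2l1 rose and Bcl2l11, Bcl2 and Bbc3 fell in suffix b against a. This share, 66.7%, stands beside 45.6% of all genes tested, 22.2% higher and 23.5% lower. No member changed at least 2-fold, where 4.98% of all genes did. For 5 of the 9 members, Bcl2, Bax, Bid, Bcl2l11 and Bbc3, the libraries of the 2 suffixes did not overlap, as was the case for 28.0% of all genes. The members' median log2 fold change was 0.01, beside 0.00 for all genes.

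Bcl2l11, whose protein BIM binds all anti-apoptotic members, differed most by the ranking of p. Its levels in 1a and 2a were 23.0 and 23.9 CPM in NLS-N-VEGF no dox, 21.1 and 20.8 CPM in NLS-N-VEGF dox, 21.9 and 19.4 CPM in N-VEGF no dox, and 19.1 and 19.4 CPM in N-VEGF dox. In 2b they were 14.5, 13.8, 12.5 and 9.64 CPM in the same order of groups, below every library of the other suffix. On the log2 scale it fell by 0.75 (SE 0.07, adjusted p = 1.57e-06 in edgeR), and within the groups the difference ranged from -0.58 to -0.96. Bcl2l11 was lower in library 2b in all 4 groups.

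Bid and Bax moved the other way. Bid lay between 5.55 and 6.70 CPM in the 8 libraries of suffix a and at 7.35, 8.47, 8.86 and 11.3 CPM in those of suffix b, a log2 difference of 0.52 (SE 0.11, adjusted p = 0.000896 in edgeR). Bax lay between 66.2 and 75.0 CPM in suffix a and between 83.9 and 99.2 CPM in suffix b, a log2 difference of 0.38 (SE 0.06, adjusted p = 6.25e-05 in edgeR). Both were higher in library 2b in all 4 groups. Bcl2l1 rose by 0.28 (log2, SE 0.07, adjusted p = 0.00438 in edgeR), from 39.9 to 54.4 CPM in suffix a to 52.9 to 60.9 CPM in suffix b, with overlap. Without N-VEGF dox 2b, the library with the highest value, its log2 fold change was 0.19 and no longer passed the test.

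Bcl2 fell by 0.27 on the log2 scale (SE 0.08, adjusted p = 0.0102 in edgeR), from 11.8 to 15.2 CPM to between 10.1 and 11.7 CPM. Its call was lost without NLS-N-VEGF dox 2b, where the fold change was -0.22. Bbc3, a target of p53 and of FOXO factors, fell by 0.24 (SE 0.09, adjusted p = 0.0418 in edgeR), from 7.11 to 8.69 CPM to between 6.24 and 6.99 CPM. With the replicate block the adjusted p was 0.0531, so this call was lost, as it also was with DESeq2 (adjusted p = 0.107) and in 8 of the 12 edgeR fits that each left out 1 library (adjusted p from 0.0298 to 0.173 over the 12). Mcl1 (0.03, SE 0.06), Bak1 (0.01, SE 0.08) and Bad (-0.13, SE 0.07, edgeR adjusted p = 0.125) did not pass the test, with 95% intervals of -0.08 to 0.15, -0.15 to 0.17 and -0.28 to 0.01.

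**Figure D4:**
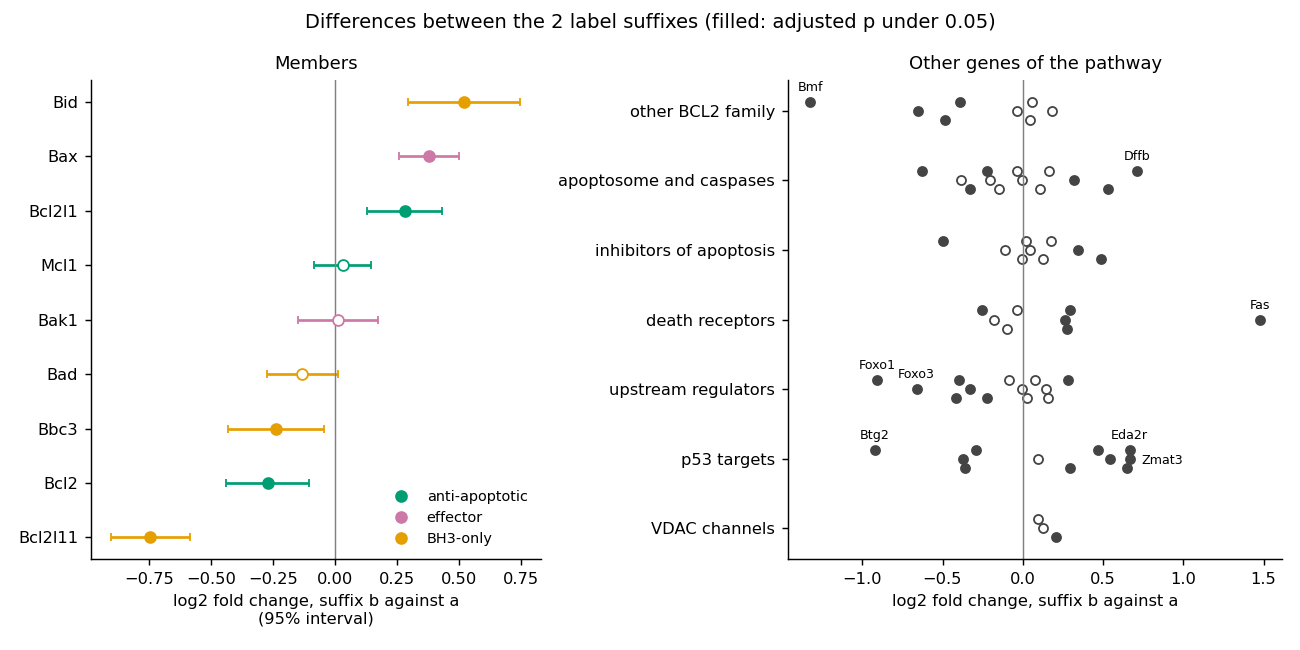
Left, log2 fold change of suffix b against a for each member with its 95% interval, coloured by class; right, the same for 65 other genes of the pathway, 1 point a gene, by list. Filled points have an edgeR adjusted p under 0.05; the members run from -0.75 for Bcl2l11 to 0.52 for Bid.

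The balance was summarised in each library as the mean log2 normalised CPM (pseudocount 0.5) of the 3 anti-apoptotic members minus that of the 7 pro-apoptotic ones. Since genes differ in length and efficiency, only differences between libraries are read. It was 1.86 ± 0.03 in NLS-N-VEGF no dox, 1.91 ± 0.06 in NLS-N-VEGF dox, 1.92 ± 0.13 in N-VEGF no dox and 1.88 ± 0.07 in N-VEGF dox (SD, n = 3 each). The groups overlapped, and dox moved the mean by 0.05 in NLS-N-VEGF and by -0.04 in N-VEGF cells. Between suffixes it was 1.88 ± 0.07 (SD, n = 8) and 1.92 ± 0.08 (SD, n = 4), also overlapping. No p-value is given, because this is a score over chosen genes.

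The direction of every one of these small differences depended on how genes were weighted. When CPM per kb were summed within each class, so that Mcl1, Bax and Bak1 dominate, the log2 ratio of anti- to pro-apoptotic transcripts was -0.39 ± 0.16, -0.46 ± 0.08, -0.49 ± 0.12 and -0.47 ± 0.14 in the same order of groups (SD, n = 3 each). Dox then moved it by -0.06 in NLS-N-VEGF and by 0.03 in N-VEGF cells, and suffix b lay 0.12 below suffix a (-0.53 ± 0.09, n = 4, against -0.41 ± 0.11, n = 8). Ratios of single genes differed in how far they moved between the suffixes. The log2 ratio of Bcl2 to Bax lay between -2.57 and -2.13 in suffix a and between -3.16 and -2.88 in suffix b, whereas that of Mcl1 to Bcl2l11 lay between 2.90 and 3.22 and between 3.59 and 4.15. Neither of these overlapped between the suffixes, and the first was lower, the second higher, in suffix b. The ratio of Bcl2l1 to Bax overlapped, at -0.76 to -0.46 in suffix a and -0.77 to -0.66 in suffix b, and its mean moved by only -0.10. That of Bcl2 to Bcl2l11 overlapped as well, at -0.99 to -0.42 and -0.51 to 0.14, with a mean 0.47 higher in suffix b. All are ratios of the CPM tested above and carry no further test.

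**Figure D5:**
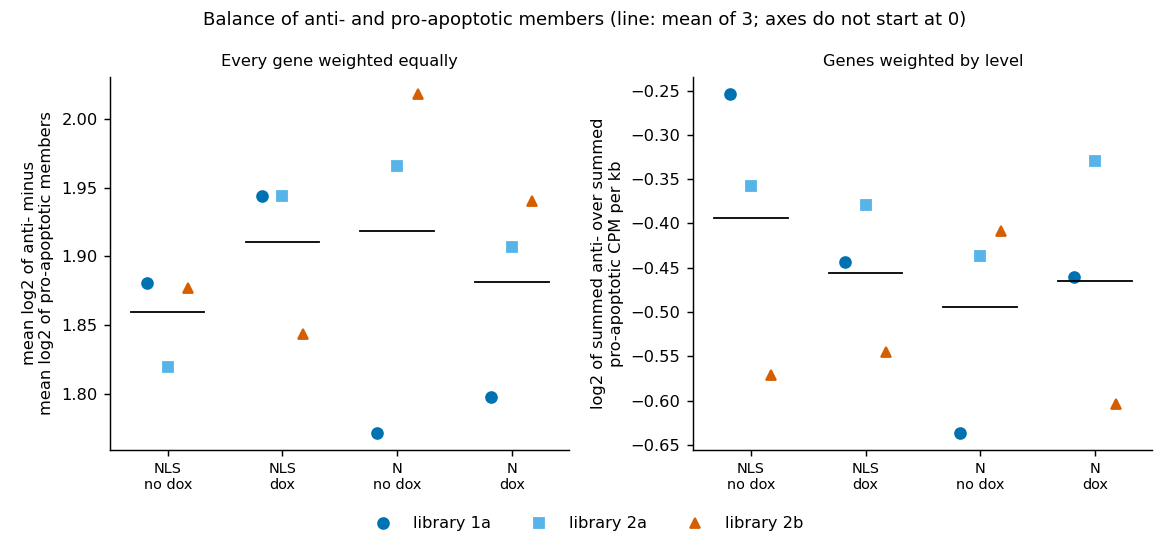
The balance of anti- and pro-apoptotic members in each library, by group, as the difference of mean log2 CPM (left) and as the log2 ratio of summed CPM per kb (right), with a line at the mean of 3. Groups overlap in both panels, and their order differs between them.

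The other genes of the pathway were read from 7 lists of 75 genes, of which 65 passed the filter. With dox in either population, in the difference of the effects and between the populations, 0 of these 65 had an adjusted p under 0.05 in edgeR. An unadjusted p under 0.05 was reached by 0 of 65 too, beside 0.603% to 2.34% of all genes in these comparisons. DESeq2 also called 0 of the 65. With the replicate block the adjusted count was again 0 in each, but 8 of 65 (12.3%, beside 7.27% of all genes) had an unadjusted p under 0.05 for dox in the NLS-N-VEGF population and 2 (3.08%, beside 5.40%) in the N-VEGF population. It was 2 (3.08%, beside 3.41%) for the difference of the effects, 1 (1.54%, beside 4.56%) between the populations with dox and 4 (6.15%, beside 3.67%) without dox. The 8 included 5 of the 11 p53 targets (45.5%), named here after their values were seen. Of these, Cdkn1a, Ccng1 and Eda2r had higher values with dox (log2 0.31, 0.21 and 0.37) and Mdm2 and Btg2 lower ones (-0.20 and -0.66), with edgeR adjusted p from 0.0878 for Btg2 to 0.647 for Ccng1. Under the same unadjusted threshold, p53 targets numbered 3 of 11 (27.3%) between the populations without dox and 1 (9.09%) with dox. They numbered 2 (18.2%) for dox in N-VEGF cells and 2 (18.2%) for the difference of the effects. Between the suffixes, 17 rose and 19 fell, 36 of 65 or 55.4% beside 45.6% of all genes, with a median log2 fold change of 0.02 beside 0.00 for all genes. Other BCL2 family genes had 4 lower and 0 higher of 8 tested, led by Bmf, a BH3-only gene linked to loss of cell attachment, at 3.46 to 7.83 CPM in suffix a and 1.63 to 3.07 CPM in suffix b (log2 difference -1.32, SE 0.19, adjusted p = 4.77e-05 in edgeR). Apoptosome and caspase genes split 3 higher and 3 lower of 13, with Dffb, the nuclease that cuts DNA in apoptosis, at 0.71 (SE 0.14). Inhibitors of apoptosis had 2 higher and 1 lower of 9, and the VDAC channels of the outer mitochondrial membrane 1 higher of 3.

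Death receptor genes had 4 higher and 1 lower of 8 (62.5%, beside 45.6% of all genes). Fas, the receptor whose signal passes through caspase-8 to Bid, rose by 1.48 on the log2 scale (SE 0.22, adjusted p = 5.33e-05 in edgeR), from 0.377 to 0.920 CPM to between 1.52 and 2.13 CPM, a low level in both. Targets of p53 had 6 higher and 4 lower of 11 (90.9%, beside the same 45.6%, median 0.29), so they did not move one way: Zmat3 (0.67, SE 0.06) and Eda2r (0.67, SE 0.09) rose and Btg2 (-0.92, SE 0.11) fell. Upstream regulators had 1 higher and 6 lower of 13 (53.8%, near the 45.6% of all genes). Foxo1 and Foxo3, transcription factors that growth factor signalling keeps out of the nucleus and that drive Bcl2l11 and Bbc3, fell by 0.91 (SE 0.11, adjusted p = 6.31e-06 in edgeR) and by 0.66 (SE 0.08, adjusted p = 8.12e-06 in edgeR). Foxo3 lay between 26.4 and 35.9 CPM in suffix a and between 18.3 and 22.2 CPM in suffix b.

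Because Foxo1, Foxo3, Bcl2l11 and Bbc3 were all lower in suffix b, the stretch before the starts of the 9 members tested and of Bmf was searched, but not that of Pmaip1, after these values were seen, for the FOXO core motif GTAAACA on both strands (TGTTTAC on the reverse). The windows are 250 bases before each RefSeq start, build GRCm38.p6. The motif was in 1040 of 32851 such windows (3.17%) and, among 15 windows of 9 members, in 1 of Bcl2l11 and 1 of Bbc3. It was in none of the 3 windows of Bmf. The windows that hold it are shown 5′ to 3′ on the plus strand with the motif in capitals. That of Bcl2l11 is chr2:128125788-128126037, with the motif beginning 227 bases before the start. That of Bbc3 is chr7:16310011-16310260, before the second of its 3 RefSeq starts and overlapping no GENCODE exon, with the motif beginning 167 bases before that start. This window lies within the annotated span of the gene (16308393 to 16318205). The lower call of Bbc3 in suffix b was itself lost with DESeq2 and with the replicate block.
Bcl2l11: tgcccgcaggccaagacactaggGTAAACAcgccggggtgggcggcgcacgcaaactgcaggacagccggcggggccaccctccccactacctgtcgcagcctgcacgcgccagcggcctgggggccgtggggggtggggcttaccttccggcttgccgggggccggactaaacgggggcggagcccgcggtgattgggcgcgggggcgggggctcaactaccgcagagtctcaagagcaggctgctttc
Bbc3: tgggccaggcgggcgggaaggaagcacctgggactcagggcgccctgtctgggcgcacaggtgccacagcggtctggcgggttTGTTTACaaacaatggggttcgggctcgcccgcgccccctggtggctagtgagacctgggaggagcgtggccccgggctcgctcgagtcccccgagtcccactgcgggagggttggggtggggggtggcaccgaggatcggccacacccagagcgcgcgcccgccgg
A match of these letters is a description of the sequence. The motif was chosen from the values of these same genes, so a part of FOXO factors in the suffix difference was not tested. Binding was not measured.

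Other measures also moved with the suffix, and their part in the members' differences was not tested. Of the 10 fibroblast markers, 3 were higher and 4 lower in suffix b (70%, beside 45.6% of all genes). The lower ones included Pdgfra at -1.32 and Col3a1 at -1.22 (log2). Thy1 and S100a4 went the other way. Thy1 lay between 119.5 and 165.2 CPM in suffix a and between 182.7 and 213.8 CPM in suffix b. S100a4 lay between 309.1 and 355 CPM and between 412.2 and 471.5 CPM. Summed leukocyte markers lay between 2.88 and 4.15 CPM in suffix a and between 5.36 and 6.18 CPM in suffix b, mostly Cd68, the only 1 of 4 that passed the filter (log2 fold change 0.83, SE 0.12), while the defining marker Ptprc reached at most 0.291 CPM and Itgam 0.063 CPM.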

How the data were processed

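Reads of 12 libraries were sequenced by the authors as single reads from unstranded TruSeq libraries. Per the labels and methods, they were trimmed with Trim Galore and cutadapt 1.10, aligned with TopHat2 2.1.0 and Bowtie2 2.2.6 to GRCm38, and counted per gene with HTSeq 0.6.1. The deposited values are raw counts, with no normalization. Depth was 13549331 to 18982127 counts per library, and floors of 3 counts cover counting error only.

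Rows named for the 10 members were taken. The members and gene lists were chosen with earlier results of these data known. Counts were fitted with edgeR 4.0.16 (R 4.3.3) over all 13608 genes that passed filterByExpr, with TMM scaling, 1 mean per group and two-sided quasi-likelihood F tests, adjusted over all genes (Benjamini-Hochberg, threshold 0.05). The suffix comparison had group as a term. Normalised CPM divided counts by the TMM-scaled library size, and exon lengths came from GENCODE M21. Promoter windows came from RefSeq. The test was checked on simulated counts in which few genes differed by suffix, so the check does not cover the wide suffix difference of these data.

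Library number and suffix pair libraries across groups. Their deviations from the group means correlated between libraries of the same label by 0.348 to 0.805 over 18 pairs, with a mean of 0.56, against a mean of -0.24 over 36 other pairs. All members are described. From the pathway lists, up to 4 called genes per direction with the largest fold change are named, and markers named beside them were chosen after their values were seen. Alternatives were DESeq2 1.42.0, RLE scaling, no filter, the replicate block, the suffix as a term, suffix a alone, only the groups compared, only libraries numbered 2, each library left out, and for the balance a pseudocount of 2, sums per kb and, added after seeing the data, Pmaip1 left out.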

Additional observations from a re-analysis of the deposited data

Results flagged for a closer look

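Bcl2 was singled out because it was higher with dox in all 3 same-label pairs of NLS-N-VEGF cells and lower in all 3 of N-VEGF cells. The log2 ratios of dox to no dox in pairs 1a, 2a and 2b were 0.17, 0.35 and 0.10 in NLS-N-VEGF cells and -0.03, -0.20 and -0.13 in N-VEGF cells. The fitted difference of the effects was 0.34 (SE 0.21, 95% interval -0.12 to 0.80), with an edgeR adjusted p of 1. It failed the correction with the replicate block too (adjusted p = 1). Of the 9 members tested, only Bcl2 had all 3 pairs of one population on one side of 0 and all 3 of the other on the opposite side. The share of all genes with this pattern was not counted, so it does not set Bcl2 apart from genes outside the family. Bcl2l1 also had opposite signs in the 2 populations within each label, but not the same ones throughout, with 0.28, 0.07 and -0.03 in NLS-N-VEGF cells and -0.44, -0.13 and 0.16 in N-VEGF cells.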

How the results depend on the processing

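The count of members called was 0 of 9 in all 5 comparisons of groups under every alternative with the filter. Between the suffixes it was 5 or 6 of 9, or 4 to 6 with each library left out. In the latter fits, 4929 of 13926 to 7200 of 13947 genes were called between the suffixes. Without the filter, where Pmaip1 was tested too, it was 0 of 10 in each comparison of groups. Between the suffixes it was then 5 of 10, beside 6405 of all 31229 genes. At an unadjusted p under 0.05, at most 3 of 9 members passed in a comparison of groups. This was in suffix a alone, for the difference of the effects and for the populations without dox. Of all 13387 genes tested there, 879 and 1454 passed, in the same order. The replicate block changed the call of Bbc3 (log2 fold change -0.24, adjusted p = 0.0531) and no other member's call. The Bbc3 call was also lost with DESeq2, with no filter, with libraries numbered 2 alone and without any of 8 single libraries: 1a and 2b of NLS-N-VEGF no dox, 1a, 2a and 2b of NLS-N-VEGF dox, 2a and 2b of N-VEGF no dox, and 1a of N-VEGF dox (log2 fold change -0.31 to -0.18 over all 12). The balance with summed CPM per kb moved to -0.062 for dox in NLS-N-VEGF cells, to -0.091 for the difference of the effects and to -0.12 for the suffix, because other genes weigh in. Leaving out each library was run only for the balance of mean log2 CPM. Its dox differences then ranged from 0.032 to 0.084 in NLS-N-VEGF cells and from -0.11 to 0.013 in N-VEGF cells. The ranges were 0.039 to 0.16 for the difference of the effects and 0.005 to 0.087 for the suffix. Among pathway genes, dox in NLS-N-VEGF cells called 1 gene without the filter (Btg2), beside 53 of all 31229 genes. In suffix a alone it called 2 (Btg2 and Eda2r), beside 109 of all 13387 genes. The difference of effects called 1 there (Btg2), beside 4 of the 13387. The cause was not tested.

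Small member effects changed sign, and none of these had been called. In suffix a alone the log2 value was 0.053 for Bax with dox in NLS-N-VEGF cells, -0.006 for Bid with dox in N-VEGF cells, and 0.026 for Bak1, 0.034 for Bid and -0.06 for Bcl2l11 in the difference of the effects. With no filter it was 0.013 for Bak1 in that difference, and -0.001 for Mcl1 and -0.02 for Bak1 between the suffixes. With only the groups compared, Mcl1 in N-VEGF cells was -0.002. With each library left out, the effect in NLS-N-VEGF cells ranged from -0.10 to 0.14 for Bax, from -0.037 to 0.19 for Bid and from -0.35 to 0.031 for Bcl2l11. In N-VEGF cells it ranged from -0.036 to 0.067 for Mcl1, from -0.23 to 0.084 for Bax, from -0.16 to 0.10 for Bak1, from -0.20 to 0.34 for Bid, from -0.18 to 0.047 for Bad and from -0.38 to 0.11 for Bcl2l11. The difference of the effects ranged from -0.10 to 0.22 for Bax, from -0.17 to 0.089 for Bak1, from -0.23 to 0.31 for Bid and from -0.25 to 0.23 for Bcl2l11, and the suffix effect from -0.039 to 0.063 for Mcl1 and from -0.028 to 0.074 for Bak1. Between the suffixes, Bax, Bid and Bcl2l11 kept their direction and their call under every alternative. With 3 libraries a group and no suffix term, the widest 95% intervals of the edgeR fit reached -0.79 and 0.70 (log2) for the dox effects. For their difference they reached -0.90 and 0.91, which limits what that fit can show. With the replicate block, the intervals for the difference were narrower, at -0.26 to 0.33 for Bcl2l11 and -0.50 to 0.40 for Bid.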
